A study of Drosophila melanogaster with 24 samples.

Results

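Complex I, the NADH:ubiquinone oxidoreductase of the mitochondrial inner membrane, is built in flies from subunits encoded by nuclear genes and by mitochondrial DNA. The nuclear subunit genes were followed here in sorted Drosophila clock neurons in which a gene of mitochondrial fission or fusion had been targeted. They were taken as the rows of the UMI count table whose symbol begins with ND- and that held at least 10 UMIs over the 24 libraries. Of 39 such symbols among 15610 genes, 37 met this minimum, and 32 of these had enough counts to be tested in every comparison. The 5 untested members and the 2 symbols under the minimum are given near the end.

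The enzyme is L-shaped. Its matrix arm takes electrons from NADH at the N module and passes them through iron-sulfur clusters to ubiquinone at the Q module, and its membrane arm pumps protons. The core subunits of the matrix arm are nuclear, those of the membrane arm are read from mitochondrial DNA, and accessory subunits, all nuclear, surround the core and are needed for its assembly and stability. Among the 32 tested members, 3 are core subunits of the N module and 4 of the Q module. A further 7 are accessory subunits of the matrix arm, 1 is the mitochondrial acyl carrier protein ND-ACP, 7 are accessory subunits of the proximal and 9 of the distal membrane arm. The last, ND-MLRQ, is the counterpart of mammalian NDUFA4, which in mammals is counted with complex IV. These places follow the mammalian counterparts.

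The libraries came from male flies in which CLK856-Gal4, a driver active in clock neurons, expresses Cas9 and eGFP. The controls carried these transgenes alone (Cas9), and the other genotypes added a UAS construct with 3 guides against Drp1, the fission GTPase, Marf, the outer membrane mitofusin, or Opa1, the inner membrane fusion GTPase (Drp1-mut, Marf-mut and Opa1-mut). Flies were about 15 days (young) or 35 days old (old) and were collected at ZT14. Each of the 8 groups has 3 libraries of about 1000 GFP-positive cells, all 3 sorted from 1 suspension of 80 to 100 brains, so p-values measure the spread between sorted pools and not between groups of flies. In bulk pools, fewer cells of a type and less RNA per cell cannot be told apart, and unedited cells may remain in a targeted group.

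Libraries held 684175 to 2889269 UMIs, and the members together made up 1.04% to 1.62% of them. Depth differs between groups: old Opa1-mut libraries held 1468850 to 1843669 UMIs against 1109778 to 1313809 in old Cas9, and young Opa1-mut libraries held 1315343 to 1525456 against 1583625 to 2141193 in young Cas9. Old Marf-mut libraries held 1394517 to 1735212 UMIs. In none of these 3 pairs of a mutant with Cas9 of its age do the ranges overlap, so depth and genotype cannot be told apart there. The targeted genes were lower but present: Opa1 averaged 93.8 ± 3.5 CPM (SD, n = 3) in old Opa1-mut against 151 ± 3.3 in old Cas9, Drp1 85.9 ± 16.4 in old Drp1-mut against 161 ± 5.5, and Marf 116 ± 8.6 in old Marf-mut against 139 ± 3.2. Summed clock neuron markers reached 7211 to 21987 CPM over all libraries, and photoreceptor markers 9.3 to 84.5 CPM. Levels are TMM-scaled CPM, UMIs brought to a common library size.

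**Figure D1:**
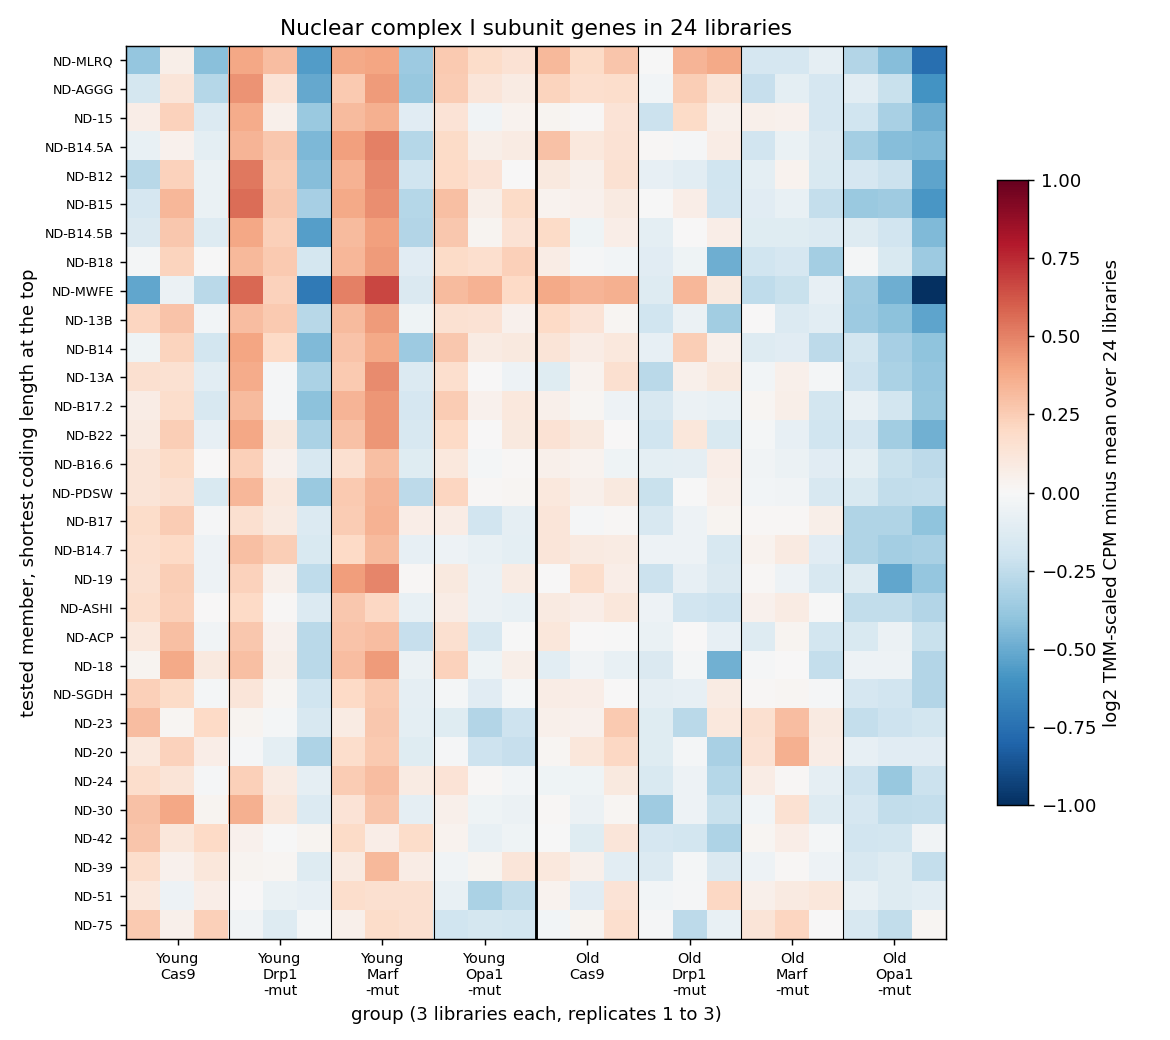
Level of 31 of the 32 tested members (rows, shortest coding length at the top) in 24 libraries (columns, 8 groups of 3), as log2 CPM minus the member's mean over all libraries. Old Opa1-mut libraries are blue in most rows, and replicate 3 of young Drp1-mut and of young Marf-mut, each the deepest of its group, is the lowest of its group in most rows.

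Nuclear complex I transcripts were lowest in old Opa1-mut neurons. The summed level of the members was 10638 ± 679 CPM there and 13631 ± 209 CPM in old Cas9, with all 3 Opa1-mut libraries (9937 to 11293) below all 3 controls (13392 to 13780). All 32 tested members had a lower estimate, with a median log2 fold change of -0.33 against 0.0011 over the 7119 genes tested. With edgeR's quasi-likelihood test and Benjamini-Hochberg adjustment over all genes at 0.05, 20 of 32 members fell and none rose, where 5.65% of all tested genes were called lower. In 27 members every Opa1-mut library lay below every control library, as it did in 14.1% of all genes.

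The fall was deepest in ND-MWFE, the counterpart of NDUFA1, a small subunit of the proximal membrane arm. Its level was 589.9, 575 and 578 CPM in the 3 old Cas9 libraries and 355, 322 and 210.2 CPM in the old Opa1-mut libraries. The groups do not overlap, and the third Opa1-mut library, the deepest of the 3, is far below the other two. The log2 fold change was -0.98 ± 0.18 (SE; edgeR adjusted p = 0.00909). The gene (FBgn0085468; BDGP6 chromosome 2R, 13158666 to 13160190, plus strand, 3 exons) shares exon bases with Nrk on its own strand and TppII on the other, and whether counting used strand is not given in the sources used here. Neither neighbour passed the test, with log2 fold changes of -0.12 ± 0.25 for Nrk (adjusted p = 0.816) and -0.081 ± 0.14 for TppII (adjusted p = 0.777).

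ND-MLRQ (FBgn0052230; BDGP6 chromosome 3L, 23339326 to 23345936, plus strand) held 928, 849 and 901 CPM in old Cas9 and 606, 552 and 439.5 CPM in old Opa1-mut. The highest Opa1-mut library lies well under the lowest control. The log2 fold change was -0.74 ± 0.11 (edgeR adjusted p = 4.68e-05), the smallest adjusted p of any member in this comparison.

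Of the 9 accessory subunits of the distal membrane arm, which surrounds the far proton-pumping subunits, 8 fell, with a median log2 fold change of -0.37 for the 9. ND-AGGG, the NDUFB2 counterpart, went from 860.1, 828 and 832 CPM in old Cas9 to 685, 630.5 and 486 CPM in old Opa1-mut. ND-B15 (NDUFB4) went from 293, 293 and 303 CPM to 221, 223 and 191 CPM in the same groups. In both the groups are apart, and the third Opa1-mut library is again the lowest. Their log2 fold changes were -0.48 ± 0.11 and -0.49 ± 0.09 (edgeR adjusted p = 0.00418 and 7.13e-04). ND-B22 (NDUFB9) stood at 626, 604 and 568 CPM in old Cas9 and 504, 444 and 406 CPM in old Opa1-mut. ND-B12 (NDUFB3) stood at 504, 486 and 523 CPM in old Cas9 and 419, 407 and 326 CPM in old Opa1-mut. Neither gene has overlapping groups. ND-B17 (NDUFB6) stood at 335, 306 and 310.3 CPM in old Cas9 and 250.4, 250.4 and 234 CPM in old Opa1-mut, and ND-ASHI (NDUFB8) at 407, 401 and 412 CPM in old Cas9 and 322, 322 and 312 CPM in old Opa1-mut. Within each group these last genes vary little. The fold changes of ND-B22, ND-B12, ND-B17 and ND-ASHI ran from -0.41 to -0.35 on the log2 scale. ND-PDSW (NDUFB10) and ND-SGDH (NDUFB5) passed with smaller changes of -0.29 and -0.26, and ND-B18 (NDUFB7) did not pass at -0.19 ± 0.096 (adjusted p = 0.231). ND-B12 shares exon bases with Rae1 on the opposite strand, and Rae1 was called higher, at 0.57 ± 0.15 (adjusted p = 0.0134).

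In the proximal membrane arm 5 of 7 members fell, with a median of -0.39. ND-B14.7 (NDUFA11) went from 379, 371 and 370.3 CPM in old Cas9 to 284, 276 and 279 CPM in old Opa1-mut. ND-19 (NDUFA8) went from 291, 329 and 305 CPM to 266, 203 and 222 CPM in the same groups. In both the groups are apart. ND-15 (NDUFS5) went from 364, 361 and 393 CPM to 311, 285 and 254 CPM in the same groups, and ND-B14.5B (NDUFC2) from 374, 318 and 343 CPM to 300.5, 287 and 241 CPM in the same groups. The log2 fold changes of these 4 genes lay between -0.42 and -0.32. ND-B16.6 (NDUFA13) and ND-42 (NDUFA10) did not pass, at -0.21 and -0.13.

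Of the 7 matrix arm accessory subunits 4 fell, with a median of -0.33. ND-B14.5A (NDUFA7) held 317, 278 and 285 CPM in old Cas9 and 204, 193 and 190.4 CPM in old Opa1-mut. ND-13B (NDUFA5) held 296, 285 and 262 CPM in old Cas9 and 201, 194 and 179 CPM in old Opa1-mut. After ND-MWFE and ND-MLRQ these had the deepest estimates, -0.58 ± 0.091 and -0.55 ± 0.093 (edgeR adjusted p = 1.19e-04 and 2.47e-04). ND-B14 (NDUFA6) held 532, 513 and 523 CPM in old Cas9 and 429, 388 and 368 CPM in old Opa1-mut, and ND-13A (NDUFS6) 299, 333 and 364 CPM in old Cas9 and 282, 261 and 248 CPM in old Opa1-mut. ND-18, the counterpart of NDUFS4, had the estimate nearest to 0 of all members, -0.053 ± 0.086 (adjusted p = 0.76). ND-39 and ND-B17.2 did not pass either, at -0.19 and -0.21, nor did ND-ACP at -0.18.

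The 7 core subunits, which include the carriers of the flavin and of the iron-sulfur clusters and the quinone site, had a median of -0.22. ND-23 (NDUFS8), a Q module subunit, fell, and stood at 404, 402 and 468 CPM in old Cas9 and 331, 338 and 343 CPM in old Opa1-mut. Its groups do not overlap, and its log2 fold change was -0.33 ± 0.086 (edgeR adjusted p = 0.0131). ND-20 (NDUFS7) stood at 390.4, 417 and 444 CPM in old Cas9 and 363, 356 and 356 CPM in old Opa1-mut, and ND-30 (NDUFS3) at 331, 317 and 333 CPM in old Cas9 and 292, 277 and 279.7 CPM in old Opa1-mut. Both are Q module genes whose groups do not overlap, but neither passed (adjusted p = 0.0968 and 0.0993). In the N module, ND-75 (NDUFS1) stood at 314, 327 and 360.0 CPM in old Cas9 and 287, 269 and 325 CPM in old Opa1-mut, ND-51 (NDUFV1) at 499.6, 452 and 535 CPM in old Cas9 and 462, 446 and 452 CPM in old Opa1-mut, and ND-24 (NDUFV2) at 232, 232 and 257 CPM in old Cas9 and 208, 184 and 206 CPM in old Opa1-mut. The ND-75 and ND-51 groups overlap, and none of these 3 passed, with estimates from -0.27 to -0.12.

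With log2 depth as a covariate no member was called in this comparison and the median was -0.23, and with all 24 libraries in a single fit 9 were called. Without the second old Opa1-mut library 13 members were called, and ND-MWFE was not called without the first or without the third old Cas9 library.

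**Figure D2:**
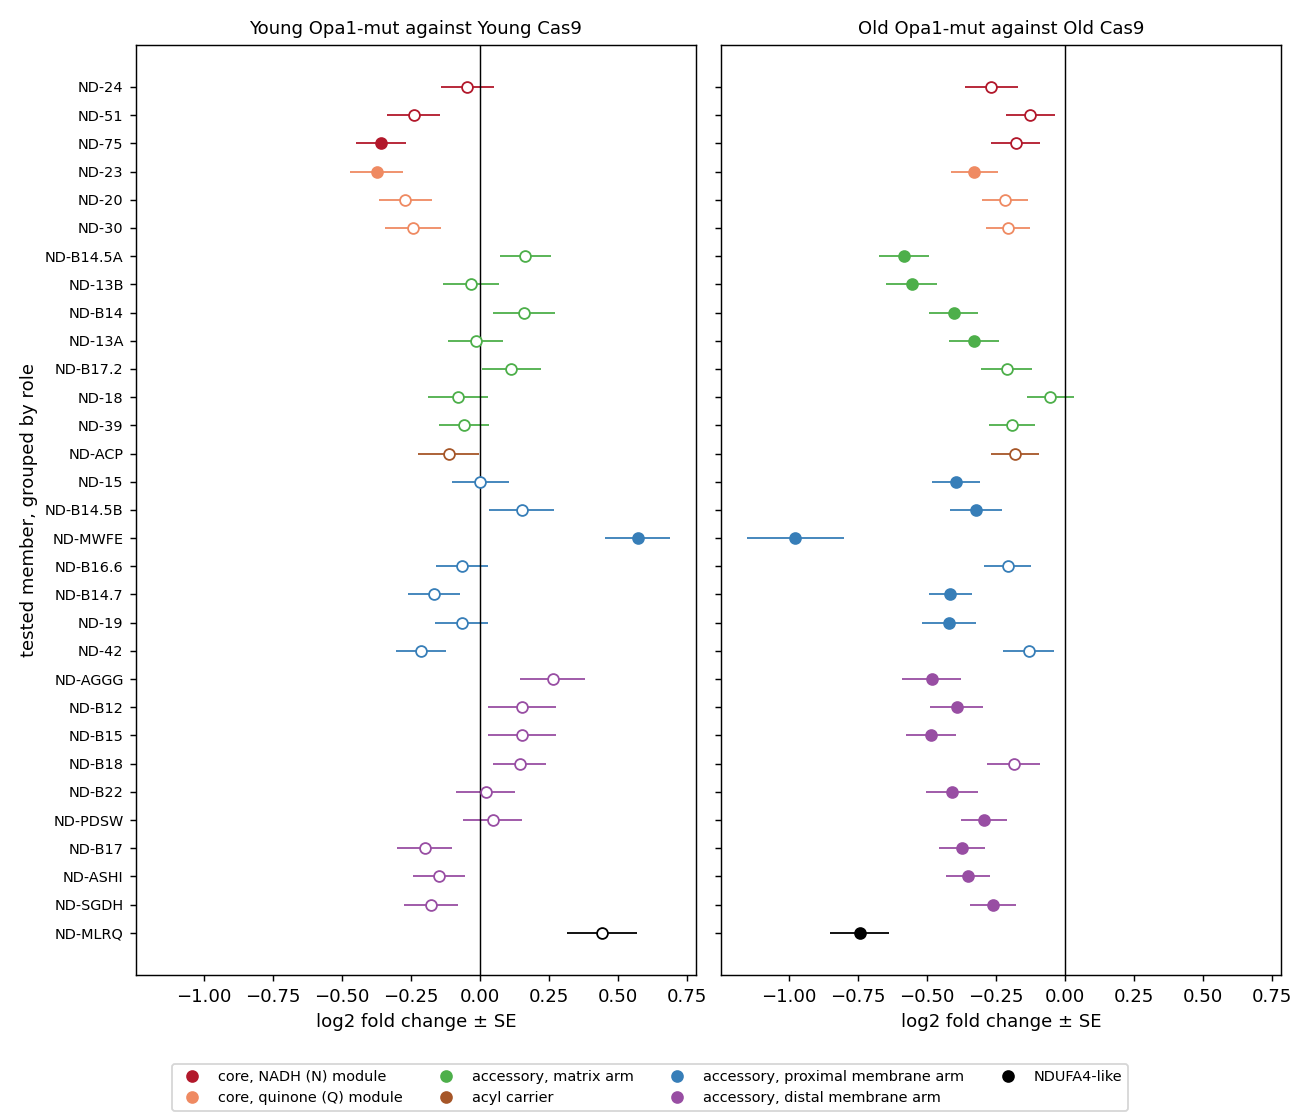
Log2 fold change with its standard error for 31 of the 32 tested members (rows, grouped by role) in young and in old Opa1-mut against Cas9 of the same age, where filled points passed the test. All old estimates plotted lie below 0, while young estimates lie on both sides, with ND-MWFE highest at 0.57 and ND-23 lowest at -0.37.

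In young Opa1-mut neurons the members did not move one way in the fit of these 2 groups without covariates. The summed level was 13259 ± 690 CPM against 13354 ± 1058 CPM in young Cas9, 13 estimates were above and 19 below 0, and the median was -0.052. The edgeR test called 1 member higher and 2 lower, where 2.94% of all genes were called. ND-MWFE was the member that rose: it held 316, 436 and 376 CPM in young Cas9 and 564, 577 and 521 CPM in young Opa1-mut, a log2 fold change of 0.57 ± 0.12 (adjusted p = 0.0163). ND-23 fell from 482, 396 and 447 to 359, 318 and 337 CPM and ND-75 from 383, 332 and 378 to 279, 284 and 282 CPM. In both core genes every Opa1-mut library lay below every control, as was so in 6 of 32 members and in 12.4% of all genes. Their changes were -0.37 ± 0.097 and -0.36 ± 0.09 (edgeR adjusted p = 0.0492 and 0.0449). All 7 core subunits had estimates below 0, with a median of -0.27. Of 7 glial marker genes 2 were called lower in the same comparison, alrm at -0.89 and Gat at -0.99 (edgeR adjusted p = 0.0396 and 0.0214), and the clock gene vri was called higher at 0.45. None of the 3 calls was kept with depth as a covariate, and leaving out any library other than the second young Cas9 one left 0 calls, against 6 without that one. Over the alternative fits the median ran from -0.23 to -0.046, against -0.34 to -0.23 in old Opa1-mut, so how far the ages differ depends on the fit.

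The change in the Opa1-mut effect between ages was tested directly as an interaction, and 7 members had a lower effect in old than in young flies, where 3.27% of all genes did. They are ND-MWFE at -1.55 ± 0.23, ND-MLRQ at -1.19 ± 0.17, ND-B14.5A at -0.75 ± 0.12, ND-AGGG at -0.75 ± 0.17, ND-B15 at -0.64 ± 0.15, ND-B14 at -0.56 ± 0.14 and ND-13B at -0.52 ± 0.13 (log2, edgeR adjusted p from 9.81e-04 to 0.0237). None is a core subunit. The highest interaction estimate was that of ND-75, at 0.18. The microRNA gene mir-4942, which shares exon bases with ND-MLRQ on the same strand and averaged 6.6 CPM, was also called lower in this test, at -4.13 ± 0.94 (adjusted p = 0.012), and had too few counts to be tested in Opa1-mut against Cas9 at either age. Of the marker genes, Clk was called lower, at -1.20. With depth as a covariate none of the 7 was called and the median over the members went from -0.28 to -0.018. The count was 4 without the third young Cas9, the first young Opa1-mut or the third old Opa1-mut library and 11 without the second young Cas9 library.

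**Figure D3:**
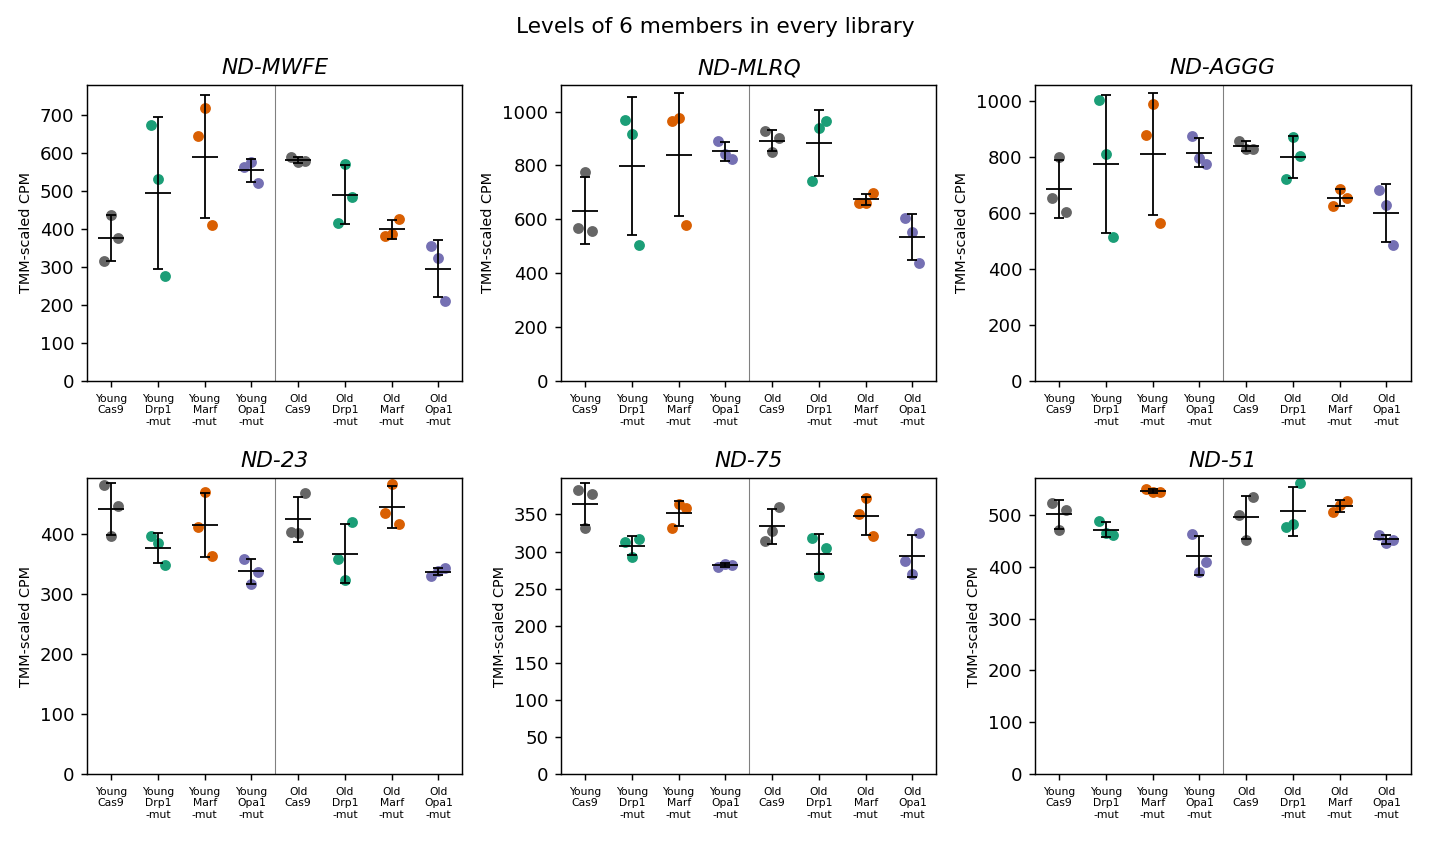
Level of 6 members in each library (points, CPM), with the group mean and SD (bars, n = 3). In ND-MWFE, ND-MLRQ, ND-AGGG and ND-23 every old Opa1-mut library lies below every old Cas9 library, while in ND-75 and ND-51 these groups overlap.

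Within Opa1-mut neurons, old flies were lower than young. The edgeR test called 20 members lower and none higher, where 4.78% of all genes were called lower, and the median was -0.30. This comparison and that of old Opa1-mut with old Cas9 share the old Opa1-mut libraries. ND-B15 went from 351, 296 and 326 CPM in young to 221, 223 and 191 CPM in old Opa1-mut, a change of -0.62 ± 0.089 (adjusted p = 1.62e-04). ND-13B went from 288, 286 and 267 to 201, 194 and 179 CPM, a change of -0.56 ± 0.086. In both genes every old library lay below every young one, as was so in 26 of 32 members and in 13.7% of all genes. ND-B18 went from 311, 307 and 322 to 269, 246 and 212 CPM and ND-B17.2 from 645, 557 and 582 to 513, 474 and 416 CPM, and both, with ND-24, were called here but not against old Cas9. ND-MWFE had the lowest estimate, -0.91 ± 0.21 (adjusted p = 0.0488), and ND-51 the highest, 0.10. Markers moved in the same comparison: the glial genes alrm and Gat were called higher, at 1.01 and 0.94 (edgeR adjusted p = 0.00341 and 0.00739), VGlut, a marker of other neurons, lower at -0.45 (adjusted p = 7.46e-04), and of the clock genes cry higher at 0.56 and per lower at -0.56. Summed glial markers were 373 to 566 CPM in young and 510 to 670 CPM in old Opa1-mut, with overlap. With depth as a covariate 8 members were called, with all 24 libraries in a single fit 3. The count was 10 without the second old Opa1-mut library, 12 without the third old one and 11 without the first young one.

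In control neurons a pair of small subunits were higher in old flies. Between young and old Cas9 the median was -0.022, and 2 members were called higher, where 2.13% of all genes were. ND-MWFE went from 316, 436 and 376 CPM in young to 589.9, 575 and 578 CPM in old Cas9, and ND-MLRQ from 567, 774 and 555 to 928, 849 and 901 CPM. The old libraries lie close together and above every young one in both genes, and they lay above every young one in 4 of 32 members and in 10.6% of all genes. Their log2 fold changes were 0.64 ± 0.12 and 0.51 ± 0.13 (edgeR adjusted p = 0.00654 and 0.0429), and ND-30 had the lowest estimate, -0.23. Gad1, a marker of other neurons, was also called higher in old Cas9, at 1.05 (adjusted p = 0.0287), as was Clk at 1.01, and summed markers of other neurons were 6738 to 11463 CPM in young and 12480 to 13690 CPM in old Cas9, without overlap. Without any 1 library other than the second young Cas9 one, 1 member was called, and 3 without that one. Both calls were lost when depth entered as a covariate and when all 24 libraries were fitted jointly, and old Cas9 libraries are shallower than young ones without overlap.

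Old Marf-mut neurons had 4 members lower than old Cas9 and none higher, where 2.91% of all genes were called lower. ND-MWFE held 381, 387 and 427 CPM, against 589.9, 575 and 578 CPM in old Cas9. ND-MLRQ held 662, 660.1 and 699 CPM, ND-AGGG 627, 686 and 654 CPM and ND-B14.5A 226, 247 and 234 CPM. Every one of these libraries is below the old Cas9 libraries given above, as was so in 12 of 32 members and in 10.8% of all genes. The log2 fold changes were -0.55 ± 0.083, -0.41 ± 0.081, -0.36 ± 0.08 and -0.32 ± 0.089 (edgeR adjusted p = 1.62e-04, 0.00232, 0.00759 and 0.0349). The core subunits had a median of 0.053, with ND-20 highest at 0.073, and the median over all members was -0.090, with 26 of 32 estimates below 0 and 16 of 32 when scaled by total counts. Summed markers of other neurons were 6423 to 9544 CPM in old Marf-mut against 12480 to 13690 CPM in old Cas9, and summed clock neuron markers 15285 to 19815 against 12582 to 14716 CPM, neither with overlap. VGlut was called lower at -0.48, tim, a clock gene, lower at -0.53 and the photoreceptor gene Arr2 higher at 2.48 (edgeR adjusted p = 0.021, 2.99e-04 and 0.00197), and 0 of 6 glial genes was called. With depth as a covariate 1 member was called, in a joint fit of all 24 libraries 0, and without the first old Marf-mut library 2.

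In young Marf-mut neurons no member was called by edgeR or DESeq2, 1 had an unadjusted p under 0.05, and 0.346% of all genes were called. The median was 0.11, from -0.11 in ND-30 to 0.66 in ND-MWFE. ND-MWFE held 643, 719 and 409 CPM in young Marf-mut, and the third library, the deepest, is apart from the other two. The clock gene cry was called lower in young Marf-mut against young Cas9, at -0.64 (edgeR adjusted p = 0.0327). The Marf-mut effect on ND-MWFE was lower in old than in young flies by the interaction test, at -1.21 ± 0.23 (edgeR adjusted p = 0.0222), the 1 member called there, where 0.257% of all genes were called lower. That call was not kept with depth as a covariate. The count was 7 without the third young Marf-mut library, 2 without the second young Cas9 library and 0 without any other library. ND-23 had the highest estimate of that test, 0.14. Between young and old Marf-mut no member was called by edgeR and 1 by DESeq2, 8 had an unadjusted p under 0.05, and 3.39% of all genes were called. Estimates ran from -0.57 in ND-MWFE to 0.089 in ND-23. Here 3 of 7 glial genes were called higher, alrm at 0.97, Gat at 0.80 and Gs2 at 0.60, and summed glial markers were 388 to 524 CPM in young and 666 to 852 CPM in old Marf-mut, without overlap. Pdf was called higher at 1.24 and Gad1 at 0.81, and ple and VGlut lower at -0.93 and -0.69. This count rests on the third young Marf-mut library: without it 21 members were called lower, and with depth as a covariate 15. The 3.39% of all genes belongs to the fit of every library without depth, and the share in these refits is not given here.

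Drp1-mut neurons had no member called at either age. In old flies 31 of 32 estimates were below 0, with a median of -0.14, from -0.31 in ND-13B to 0.04 in ND-51. The count was 0 by edgeR and DESeq2, with 7 members at an unadjusted p under 0.05 and 0.394% of all genes called. ND-13B held 225, 248 and 203 CPM in old Drp1-mut, below the old Cas9 libraries, and in 14 members every old Drp1-mut library was under every control, against 6.75% of all genes. Summed markers of other neurons were 2967.5 to 9781.5 CPM in old Drp1-mut against 12480 to 13690 CPM in old Cas9, without overlap. Summed glial markers were 552 to 1020 against 335 to 667 CPM, with overlap. In young flies estimates ran from -0.27 in ND-20 to 0.40 in ND-MWFE, with 0 calls by either tool, 2 members at an unadjusted p under 0.05 and 0.0831% of all genes called. The third young Drp1-mut library, with 2889269 UMIs the deepest of all, had a summed level of 10499 CPM against 15589 and 13755 CPM in its partners. Between ages, no member was called in Drp1-mut (2 at an unadjusted p under 0.05, 0 by DESeq2, 0.705% of all genes called), from -0.34 in ND-B18 to 0.14 in ND-MLRQ. Gad1, a marker of other neurons, was called higher in old than in young Drp1-mut, at 1.18 (edgeR adjusted p = 2.62e-04). The Drp1-mut effect did not pass as different between ages in any member (0 at an unadjusted p under 0.05, 0 by DESeq2, 0.0% of all genes called), from -0.65 in ND-MWFE to 0.12 in ND-51.

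When counts were summed per suspension, with genotype and age as terms and 3 residual degrees of freedom, no member was called for any term by edgeR or DESeq2. The Opa1-mut term had 32 of 32 estimates below 0, a median of -0.19 and 10 members at an unadjusted p under 0.05, where 0.609% of all genes were called. ND-23 was lowest at -0.37. The Drp1-mut, Marf-mut and age terms had medians of -0.13, -0.039 and -0.13, with 3, 0 and 7 members at an unadjusted p under 0.05 and 0.138%, 0.103% and 3.72% of all genes called. Of the Marf-mut estimates 23 of 32 were below 0, and 9 when scaled by total counts.

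In the Opa1-mut comparisons, and in several others, a member's fold change went with the length of its coding sequence. In old Opa1-mut against old Cas9 the 8 shortest members (249 to 351 bases) had a median of -0.44 and the 8 longest (663 to 2193 bases) -0.20, and Spearman's rho between coding length and log2 fold change was 0.70 over the 32 members. In young Opa1-mut the order was turned, with medians of 0.15 and -0.24 and a rho of -0.87. The interaction of the 2 ages had a rho of 0.90. The same sign as in old Opa1-mut was found in old Marf-mut (0.82), and the opposite one in young Drp1-mut (-0.85) and young Marf-mut (-0.78) and between the ages of Cas9 (-0.77). In old Drp1-mut rho was -0.28 and between the ages of Drp1-mut -0.071, and over suspensions it was -0.68 for the Drp1-mut, 0.36 for the Marf-mut, -0.40 for the Opa1-mut and 0.13 for the age term. These are descriptions over genes that share their libraries, and the grouping by length was made after the values were seen. The 34 tested nuclear genes of complexes II to V had similar values, 0.83 in old and -0.84 in young Opa1-mut, whereas over all tested genes with a coding length rho was -0.076 and 0.091. Yet among all these genes, those under 600 bases had a median of -0.040 in old Opa1-mut and the longer ones 0.0054. In young Opa1-mut these medians were 0.068 and -0.027, and for the interaction -0.080 and 0.048. In young Marf-mut they were -0.0043 and 0.011, the other way from the members. Of the members called in old Opa1-mut, 13 are among the 16 shortest and 7 among the 16 longest. In 3 of 8 groups the deepest library had the lowest median of short against long members, and in 5 of 8 the shallowest library had the highest. In a random order each of the 3 libraries of a group would take either place equally often. Both tallies use the same libraries, and neither was tested. The part of depth in this was not tested beyond the depth covariate given above.

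**Figure D4:**
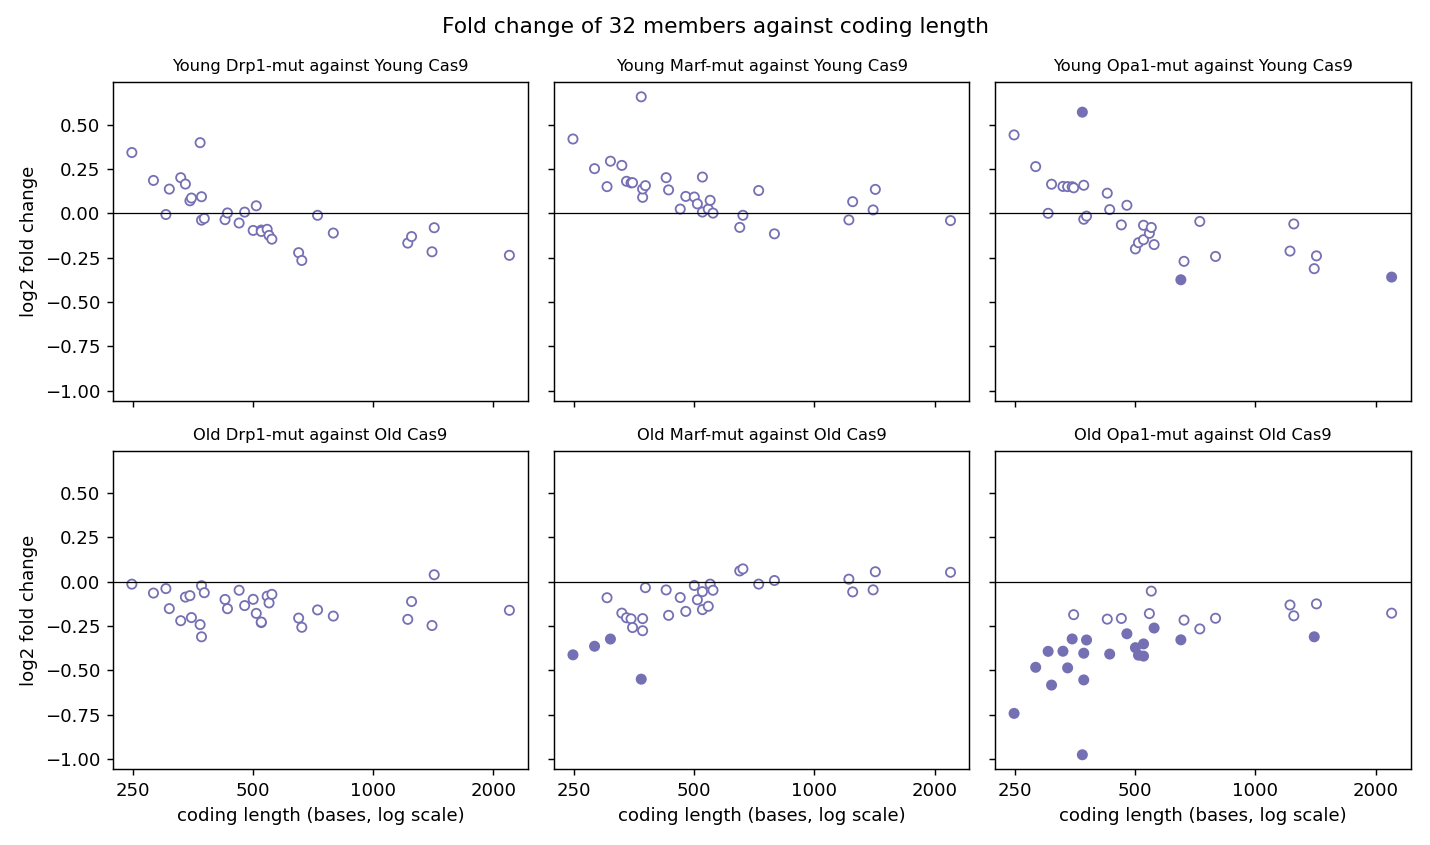
Log2 fold change of each of 32 members against its coding length (log scale) in the 6 comparisons of a mutant with Cas9 of its age, where filled points passed the test. Short members lie highest in the young comparisons and lowest in old Marf-mut and old Opa1-mut, with rho of 0.82 and 0.70 in the latter.

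Levels of most members, but not of all, varied together from library to library. Over 496 pairs of members, the median Pearson correlation of log2 levels was 0.71 across the 24 libraries and 0.75 after the group means were removed, a description of genes that share library and depth. The lowest pair had -0.25 across the 24 libraries. Within groups, the median correlation with the other members was -0.21 for ND-75, -0.15 for ND-42 and 0.14 for ND-51, and 0.88 for ND-B14.

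Complex I also needs the 7 subunits read from mitochondrial DNA, and their transcripts did not follow the nuclear ones in every genotype. In old Opa1-mut both were lower: all 7 mitochondrial transcripts fell, with a median of -1.20, and their sum was 4897 ± 996 CPM against 11344 ± 198 CPM in old Cas9. In old Drp1-mut 6 of the 7 rose, with a median of 0.70, while 31 of 32 nuclear estimates were below 0. In old Marf-mut 6 of 7 fell, with a median of -0.61. The ratio of the nuclear to the mitochondrial sum was 1.20 in old Cas9, 0.69 in old Drp1-mut, 1.63 in old Marf-mut and 2.21 in old Opa1-mut. Each library's ratio was 1.19 to 1.21 in old Cas9, 0.64 to 0.75 in old Drp1-mut, 1.54 to 1.78 in old Marf-mut and 1.87 to 2.42 in old Opa1-mut, with no overlap among these groups. In young flies the mean ratios were 1.44 in Cas9, 1.05 in Drp1-mut, 1.64 in Marf-mut and 1.63 in Opa1-mut. Single young Cas9 libraries ran from 1.23 to 1.56, and every young mutant overlaps them. The ranges were 0.85 to 1.37 in young Drp1-mut, 1.43 to 1.99 in young Marf-mut and 1.40 to 1.79 in young Opa1-mut.

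**Figure D5:**
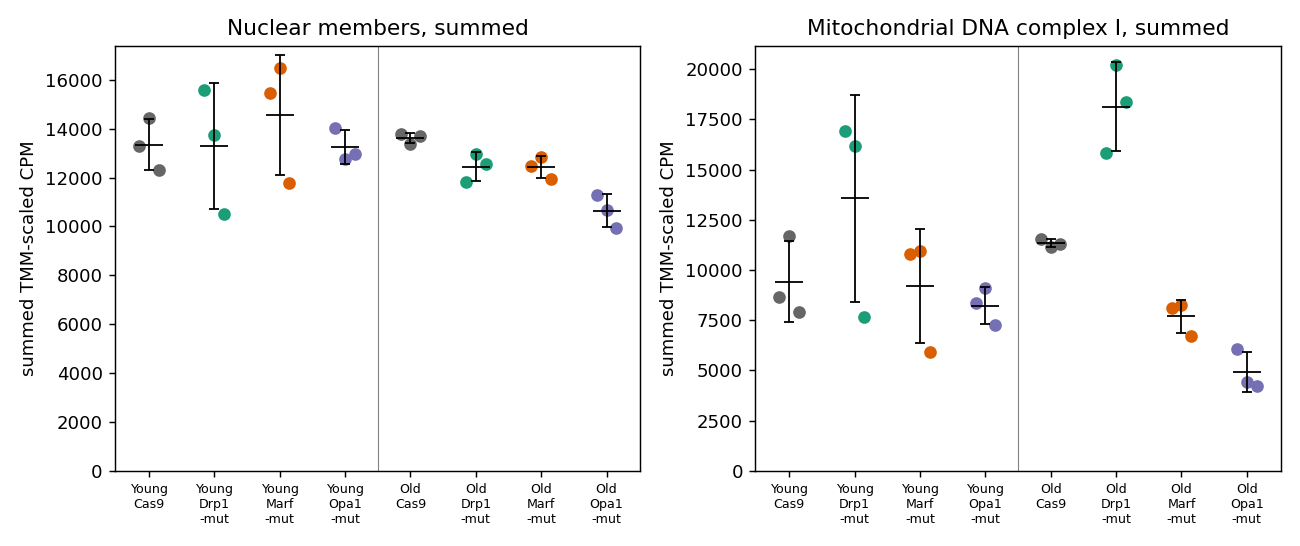
Summed CPM of the nuclear members and of the 7 mitochondrial DNA transcripts of complex I in each library (points), with group mean and SD (bars, n = 3). The nuclear sum is lowest in old Opa1-mut, and the mitochondrial sum is highest in old Drp1-mut and lowest in old Opa1-mut.

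Genes of the other respiratory complexes give the setting in old Opa1-mut. Of 34 tested nuclear genes of complexes II to V, 17 fell and 1 rose, with a median of -0.28. None of 4 complex II genes passed, 3 of 8 in complex III fell, among them UQCR-Q at -0.50, and 6 of 12 in complex V fell, among them ATPsynE at -0.61. In complex IV 8 of 10 fell, such as COX7C at -0.58 and cype at -0.57, and COX7AL rose by 1.44. None of 8 complex I assembly genes passed, with a median of -0.18. Ldh, which regenerates NAD+ outside the respiratory chain, rose by 3.90 (edgeR adjusted p = 5.15e-13), and crc, the fly ATF4, by 0.29, while Gpdh1 fell by 0.49. In young Opa1-mut, Ldh and Gpdh1 were also called, at 4.19 and -0.55. Ldh was called higher too in young Drp1-mut, at 2.14, and in old Marf-mut, at 2.06. Between the ages it was called higher in Cas9, at 2.83, in Marf-mut, at 3.57, and in Opa1-mut, at 2.53.

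Markers of other cells are given above for some of the other comparisons. Over the old Cas9 and old Opa1-mut libraries, summed glial markers ranged from 335 to 667 and from 510 to 670 CPM, and 0 of 6 tested glial genes was called. Summed markers of other neurons were 12480 to 13690 CPM in old Cas9 and 6519 to 10966 CPM in old Opa1-mut, with 2 of 7 called lower, and no listed marker was at 0 in every library. Summed fat body and hemocyte markers were 7.6 to 149 CPM over all libraries, and none was called in any comparison. The part of markers in the results on the members was not tested in any comparison.

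The 5 untested members had too few counts. ND-B8, the counterpart of the matrix arm subunit NDUFA2, held 23 UMIs over all libraries, and its exons overlap those of Gs1l on the opposite strand, which averaged 344 CPM. The paralogs ND-51L1, ND-24L, ND-49L and ND-51L2 held 16, 12, 10 and 10 UMIs, and outside the minimum ND-B14.5AL held 4 and ND-20L 0. Each of these is a second copy named after a subunit. Among tested members 3 share exon bases with another gene on the same strand, ND-15, ND-MLRQ and ND-MWFE, for which reads could be split. On the opposite strand 15 tested members do, ND-15 and ND-MWFE among them. As it is not given whether counting used strand, reads could be split in these too. ND-B17.2 lies 1108 bases from Drp1, the nearest of all members to a targeted gene, and was not called in Drp1-mut at either age, at -0.035 ± 0.18 in young and -0.1 ± 0.10 in old flies.

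The authors' deposited tables list all 32 tested members. In the authors' deposited table for old Opa1-mut 18 members are lower at an adjusted p under 0.05, and all 18 were also called here. Of all genes in it, 6.12% were called in either direction. In the authors' deposited table for young Opa1-mut 3 are lower, among them ND-23 and ND-75, and none is higher, where 2.20% of all genes were called. ND-MWFE, called higher in young Opa1-mut here, stands at 0.57 in that deposited table of the authors and is not called (DESeq2 adjusted p = 0.485). In the authors' deposited table for old Marf-mut 2 are lower, ND-MLRQ and ND-MWFE, where 1.91% of all genes were called. The authors' deposited tables for Drp1-mut at both ages and for young Marf-mut hold no called member. Of all genes, 0.181% were called in young Drp1-mut, 0.413% in old Drp1-mut and 0.762% in young Marf-mut.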

How the data were processed

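Counts are whole UMIs per gene and library as the authors deposited them, from Smart-seq3 libraries of polyA RNA, per the labels' protocols. The submitters' processing notes name STAR and the dm6 build; the version of the aligner and the annotation used are not given here. The authors deposited comparison tables with log2 fold changes, p-values and adjusted p-values, and the submitters' processing notes name DESeq2 for them. Mean level, standard error and Wald statistic in the deposited tables count as score columns, as their headers give no scale.

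Counts were tested in R 4.3.3 with edgeR 4.0.16 (quasi-likelihood F test, TMM scaling, filterByExpr, robust dispersions), fitted on all genes of the 2 groups compared (4 groups for an interaction) and adjusted by Benjamini-Hochberg over all tested genes, with calls at an adjusted p under 0.05. The standard error is the size of the log2 fold change divided by the square root of F. TMM factors were 0.904 to 1.15. Depth was 684175 to 2889269 UMIs and limits low genes. The scripts were tested on simulated data. Coding lengths, positions and overlaps come from the Ensembl BDGP6 annotation, in which all 37 members were found.

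The members and lists were chosen with earlier results of these data known. Named genes are members called in any comparison, the 20 with the smallest adjusted p given by library for the comparisons they were called in, the 7 core subunits (results of 1 of them are not reported here), the highest and lowest estimate in each comparison, and the paralogs; other lists have up to 4 called genes named. Alternatives were scaling by total counts or by DESeq2 size factors, omitting the filter, DESeq2 1.42.0 as the test, a replicate block, log2 depth as a covariate, fits of all 24 libraries or the 12 of an age, and leaving out each library or suspension. Replicate numbers do not pair libraries across groups: in 0 of 10 comparisons were all 3 correlations over 0.1 (range -0.14 to 0.13). No sequences are shown.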

Additional observations from a re-analysis of the deposited data

Results flagged for a closer look

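The effect of targeting Opa1 differed between ages in 7 members by the interaction test (log2, old minus young): -0.52 in ND-13B, -0.75 in ND-AGGG, -0.56 in ND-B14, -0.75 in ND-B14.5A, -0.64 in ND-B15, -1.19 in ND-MLRQ and -1.55 in ND-MWFE. The effect of targeting Marf differed between ages in ND-MWFE, by -1.21. None of these 8 differences was called with log2 depth as a covariate.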

How the results depend on the processing

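Of 816 refits of the 57 single-gene calls none changed direction, and 230 lost the call. Of 135 refits of the median log2 fold change, 119 moved by less than 0.11, the pooled SD within groups of a library's median log2 level. That bound is wider than some of the medians themselves, such as -0.052 in young Opa1-mut against Cas9. Leaving out 1 library gave 0 to 1 members called in young Drp1-mut, 0 to 2 in young Marf-mut, 0 to 6 in young Opa1-mut, 2 to 5 in old Marf-mut and 13 to 18 in old Opa1-mut against Cas9. Between ages it gave 1 to 3 in Cas9, 0 to 21 in Marf-mut and 10 to 18 in Opa1-mut, and for the change of effect with age 0 to 7 in Marf-mut and 4 to 11 in Opa1-mut. Shares of all genes called in the refits are not given here.

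With log2 depth as a covariate, members called were 0 in young Opa1-mut, 1 in old Marf-mut and 0 in old Opa1-mut against Cas9; between ages 0 in Cas9, 15 in Marf-mut and 8 in Opa1-mut; for the change of effect with age 0 in Marf-mut and 0 in Opa1-mut; over suspensions 2 for Opa1-mut and 5 for age. With all 24 libraries in a single fit they were 0 in old Marf-mut, 9 in old Opa1-mut, 0 between ages in Cas9, 3 between ages in Opa1-mut, 0 for the Marf-mut and 2 for the Opa1-mut change of effect. With the 12 libraries of an age in a single fit they were 0 in young Opa1-mut and 2 in old Marf-mut.

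With total count scaling, 1 member was called in young Marf-mut, 3 between ages in Marf-mut and 2 for age over suspensions. With no filter these were 1, 5 and 1, and 3 for the Marf-mut change of effect. DESeq2 called 1 between ages in Marf-mut. The causes of these shifts were not tested. Same-numbered libraries share only a number. With a replicate block 1 member was called in young Opa1-mut and 2 between ages in Marf-mut, and in old Opa1-mut 21 against 20. At 3 libraries a group from 1 suspension, differences between groups of flies cannot be told apart from differences between suspensions.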
